A study of Mus musculus with 5 samples.

Results

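Sfi1, Cetn2 and Cetn3 were 3 of the 55471 genes in the estimated-count tables of colon from mice with colitis, and were found by gene symbol. They were taken up with an earlier result of these data known, namely that Sfi1 was lower in propyzamide than in vehicle. Every difference between these treatments is therefore given for the 3 genes and their transcripts as a description with no test. All mice were male C57BL/6 animals, 11 weeks old, whose colon was taken 3 days after TNBS (trinitrobenzene sulfonic acid, a hapten that inflames the colon). They had received propyzamide, an herbicide whose target in weeds is the assembly of microtubules (3 libraries), or vehicle (2 libraries), and every group carried the TNBS colitis. Each library came from a frozen piece of colon. The propyzamide dose, the colon segment and colon without TNBS were not analysed here. The labels call each sample a treated mouse and say nothing of litters or cages, and p-values refer to the spread of these 5 libraries alone.

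Centrins are small calcium-binding proteins of the centriole, the core of the centrosome from which the cell's microtubules and its cilium grow. Sfi1 is a long protein built of repeats that each bind a centrin, first described in yeast, where it forms the half-bridge along which the spindle pole body duplicates. Cetn2 encodes centrin 2, which also serves in the XPC complex that recognises DNA damage, and Cetn3 encodes centrin 3, the mammalian relative of the yeast centrin. In bulk tissue, fewer cells of a type and less RNA of a gene per cell both give a lower value and cannot be told apart.

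On the GRCm38 build and its GENCODE M21 annotation, Sfi1 lies on the minus strand of chromosome 11 from 3131850 to 3193463, Cetn2 on the minus strand of chromosome X from 72913532 to 72918411, and Cetn3 on the plus strand of chromosome 13 from 81783077 to 81797155. The annotation gives Sfi1 20 transcripts in these tables, Cetn2 4 and Cetn3 8. The reference form of Sfi1 used below is ENSMUST00000081318.12, with 33 exons and 3648 coding bases, and that of Cetn3 is ENSMUST00000022009.9, with 5 exons and 501 coding bases. The Sfi1 transcripts that held most of the vehicle counts run from an exon into bases that are intron in the reference form, or out of such bases into an exon. Their junctions are shown beside the spliced junction at the same exon edge, because these are the stretches by which the forms differ. They are printed 5′ to 3′ in the sense of the gene, from the GENCODE M21 transcripts. In the lines of a reference form the capitals mark the next coding exon, and in the other lines they mark bases that lie in an intron of the reference form.
Sfi1 reference form, exon 29 joined to exon 30: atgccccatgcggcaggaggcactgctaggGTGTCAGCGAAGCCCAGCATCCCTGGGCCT
3′ retained-intron form, exon 29 into the intron, chr11:3134288-3134347: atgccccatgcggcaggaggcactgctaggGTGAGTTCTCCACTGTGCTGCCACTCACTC
Sfi1 reference form, exon pair at the middle retained-intron form: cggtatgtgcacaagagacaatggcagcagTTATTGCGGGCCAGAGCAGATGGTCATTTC
Middle retained-intron form, intron into the exon, chr11:3146263-3146322: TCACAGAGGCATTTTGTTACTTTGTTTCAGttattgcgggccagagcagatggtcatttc
Sfi1 reference form, exon pair at the end of the short 5′ form: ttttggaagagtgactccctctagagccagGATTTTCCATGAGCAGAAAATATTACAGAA
Short 5′ form, exon joined to its own last exon: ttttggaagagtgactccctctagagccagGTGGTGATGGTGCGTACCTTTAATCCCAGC
Cetn3 reference form, exon joined to the next exon: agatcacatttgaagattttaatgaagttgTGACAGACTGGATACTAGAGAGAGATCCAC
Cetn3 retained-intron form, intron into the exon, chr13:81791926-81791985: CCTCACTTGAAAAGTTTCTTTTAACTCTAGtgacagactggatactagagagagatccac

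Total estimated counts ranged from 1882235 to 2706885 in propyzamide and from 1573700 to 2258237 in vehicle, so that 1 count equals 0.340 to 0.609 CPM, the count scaled to a TMM-adjusted library size. The groups stood apart in a pair of measures that take in no member. Over 1463 protein-coding genes of olfactory and vomeronasal receptors, little used outside the nose, counts per kilobase were 0.0587, 0.467 and 0.140 in propyzamide and 0.910 and 0.569 in vehicle. Of the counts of protein-coding genes, transcripts annotated as retained introns held 5.68%, 4.77% and 4.71% in propyzamide and 8.31% and 7.61% in vehicle. Neither measure overlapped between the groups.

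Sfi1 stood at 9.06, 8.95 and 5.53 CPM in propyzamide, against 111 and 96.4 CPM in vehicle. These values came from 26.7, 17.4 and 9.08 estimated counts in propyzamide and 269 and 170 in vehicle. All 3 propyzamide libraries lay far below both vehicle libraries. The mean was 7.85 ± 2.01 CPM in propyzamide and 104 ± 10.4 CPM in vehicle (SD, n = 3 and 2), a log2 fold change of -3.71 with an SE of 0.38. Summed over each group, Sfi1 was 12.95-fold lower in propyzamide, with an exact 95% counting interval of 9.72 to 17.6 that covers counting error only. Per transcript length, in the authors' TPM, Sfi1 stood at 6.19, 3.16 and 1.53 in propyzamide, against 102 and 39.0 in vehicle. Sfi1 was among the 229 of 12024 tested genes (1.9%) that edgeR's quasi-likelihood test called at an adjusted p under 0.05. Of all tested genes, 1.21% were called lower and 0.69% higher in propyzamide, and 20.8% were lower in propyzamide with no overlap between the groups in CPM. As the gene was chosen on this contrast, nothing is read from its call.

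**Figure D1:**
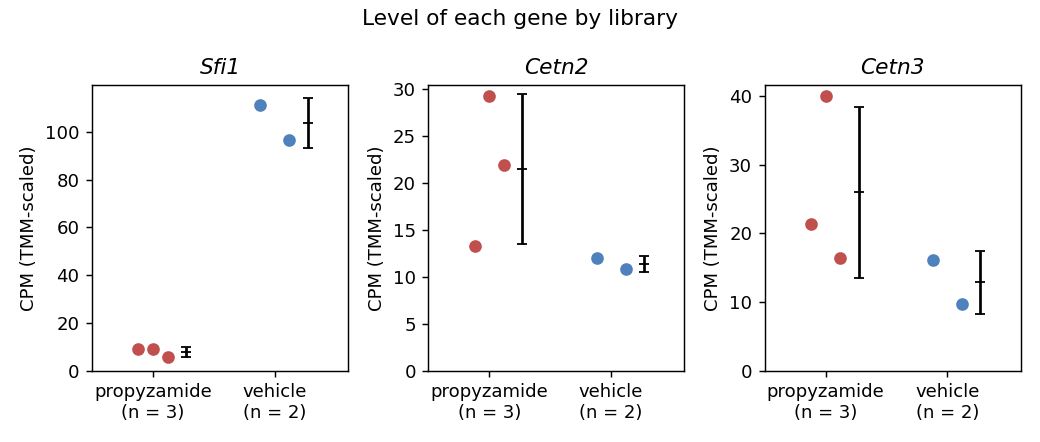
CPM on TMM-scaled library sizes of Sfi1, Cetn2 and Cetn3 in each propyzamide (red, n = 3) and vehicle (blue, n = 2) library; bars show the mean and SD of each group. Sfi1 lies at 5.53 to 9.06 CPM in propyzamide and 96.4 to 111 CPM in vehicle, while the centrin values lie higher in propyzamide, by a narrow margin at the nearest libraries.

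Most of the Sfi1 difference in counts lay in a single transcript without coding bases. The 3′ retained-intron form (ENSMUST00000144447.7) had 9.97, 0 and 2.95 estimated counts in propyzamide, against 209 and 118 in vehicle. It was at 3.39, 0 and 1.80 CPM in propyzamide and 86.6 and 67.1 CPM in vehicle, with no overlap. Summed over each group it was 39.4-fold lower in propyzamide, with an exact 95% counting interval of 22.7 to 74.9. That interval does not cover how counts were divided between forms that share exons. The 3′ retained-intron form held 37.4%, 0% and 32.5% of the Sfi1 counts in the propyzamide libraries, against 78.0% and 69.6% in the vehicle libraries. It accounted for 78.3% of the difference between the group means of Sfi1 in CPM. Per transcript length its part was smaller. In TPM it stood at 0.99, 0 and 0.38 in propyzamide and 39.15 and 14 in vehicle. As a percent of the gene's TPM (IsoPct), that was 15.97%, 0% and 24.82% in propyzamide and 38.25% and 35.86% in vehicle.

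The 3′ retained-intron form spans the 3′ end of the gene, on chromosome 11 from 3131887 to 3136007, in 4 exons and 3792 bases. Of these bases 2429, or 64.1%, are intron in the reference form. They come from 5 introns of 552, 124, 1110, 559 and 84 bases that lie whole within its exons. The longest is the intron between exons 29 and 30, from 3133208 to 3134317, whose first bases are printed above for the 3′ retained-intron form.

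**Figure D2:**
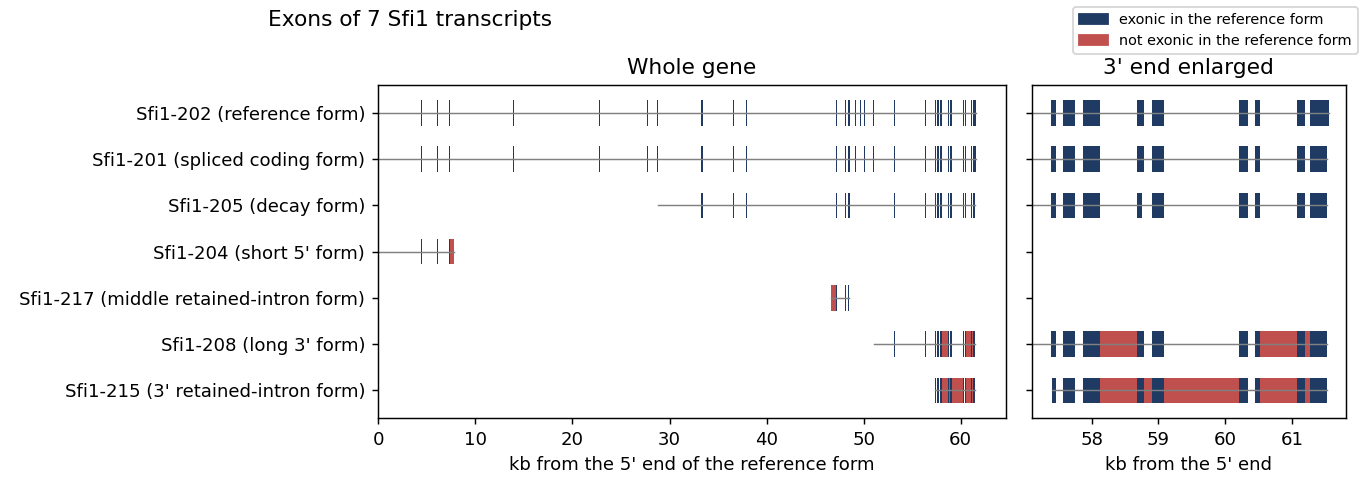
Exons of 7 Sfi1 transcripts by distance in kb from the 5′ end of the reference form, over the whole gene and enlarged at the 3′ end; blue bases are exonic in the reference form and red bases are not. Introns of the reference form make up 64.1% of the 3′ retained-intron form, 58.7% of the middle retained-intron form, 49.0% of the short 5′ form and 40.2% of the long 3′ form, and none of the spliced coding form and the decay form.

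A pair of shorter transcripts from elsewhere in the gene was also lower in propyzamide. The short 5′ form (ENSMUST00000118627.1), which carries the 5′ end of the gene and a last exon that is intron in the reference form, is annotated as coding, with 270 coding bases. It had 4, 0 and 0 estimated counts in propyzamide, against 27.1 and 15.2 in vehicle, 16.4-fold lower with an exact counting interval of 5.95 to 63.01. The middle retained-intron form (ENSMUST00000146888.1) had 1, 1 and 0 in propyzamide, against 14.7 and 16 in vehicle, 24.2-fold lower with a counting interval of 6.16 to 209. Intron bases of the reference form made up 49.0% of the short 5′ form and 58.7% of the middle retained-intron form. In TPM the short 5′ form stood at 2.21, 0 and 0 in propyzamide and 28.7 and 9.96 in vehicle. The middle retained-intron form stood at 0.65, 0.72 and 0 TPM in propyzamide and 18.4 and 12.3 TPM in vehicle. Together with the 3′ retained-intron form these transcripts accounted for 95.8% of the Sfi1 difference in CPM, at 5.09, 0.513 and 1.80 CPM in propyzamide and 104 and 84.8 CPM in vehicle. None of the 3 overlapped between the groups, and of all 16682 transcripts tested, 16.4% were lower in propyzamide without overlap.

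The other Sfi1 transcripts had few counts and did not all differ in 1 direction. The long 3′ form (ENSMUST00000137633.7), also annotated as a retained intron, shares the 3′ end with the 3′ retained-intron form and holds 3 of its 5 introns, and intron bases make up 40.2% of it. It had 3.83, 13.99 and 0.98 estimated counts in propyzamide, against 1.27 and 10.8 in vehicle, so its groups overlapped, and the ratio of summed levels was 1.01 (exact counting interval 0.467 to 2.29). Counts may be divided uncertainly between the long 3′ form and the 3′ retained-intron form, which had 0 where the long 3′ form had 13.99. All retained-intron transcripts of Sfi1 together had 5.03, 7.69 and 2.39 CPM in propyzamide, against 93.2 and 82.2 CPM in vehicle. The decay form (ENSMUST00000126746.8), annotated as a target of nonsense-mediated decay, had 5.86, 2.44 and 5.15 counts in propyzamide and 0 in both vehicle libraries. With vehicle set to 3 counts in all, the limit that 0 counts allow, it was 2.77-fold higher in propyzamide, and the exact 95% counting interval of the ratio begins at 1.95. The spliced coding form (ENSMUST00000066391.13), with 3552 coding bases, had 0 counts in all 3 propyzamide libraries and 7.11 and 9.67 in vehicle, which is 8.86-fold lower with propyzamide set to 3 counts in all. The exact counting interval of that fold begins at 6.45. Most exons of the decay form are also exons of the spliced coding form. Counts may be divided uncertainly between these forms, which the counting intervals do not cover, so their opposite directions are not read as a difference between them. The spliced coding form falls below the share at which a transcript was to be named and was picked after its values were seen, because it is a full-length coding form. The reference form itself was at 0 in every library, as were 10 other Sfi1 transcripts.

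Taken by content, the 8 Sfi1 transcripts with no base in an intron of the reference form had 5.86, 2.44 and 5.15 counts in propyzamide, against 16.2 and 9.67 in vehicle. In CPM that was 1.99, 1.25 and 3.14 in propyzamide and 6.70 and 5.49 in vehicle, 3.13-fold lower with an exact counting interval of 1.55 to 6.62. The 12 transcripts with such bases had 7.07, 7.69 and 2.39 CPM in propyzamide, against 104 and 90.9 CPM in vehicle, 16.1-fold lower with an interval of 11.7 to 22.9. Neither sum overlapped between the groups. By annotated type, protein-coding transcripts held 22.5%, 0% and 0% of the Sfi1 counts in propyzamide and 16.1% and 14.7% in vehicle. That share overlapped between the groups. With the 3′ retained-intron form left out altogether, Sfi1 stood at 5.67, 8.95 and 3.73 CPM in propyzamide and 24.5 and 29.3 CPM in vehicle, and its log2 fold change was -2.14 instead of -3.71.

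**Figure D3:**
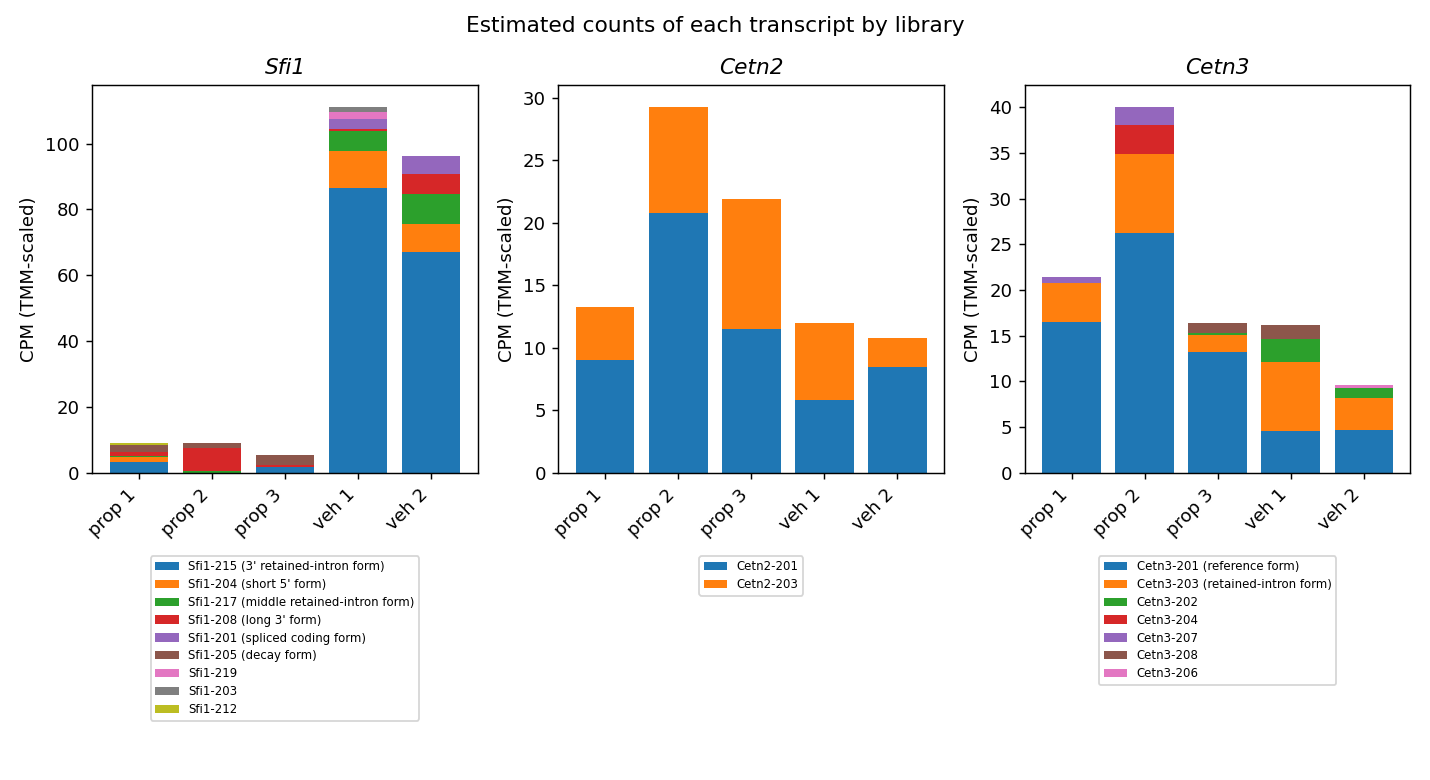
CPM of every transcript with a count, stacked by library (prop, propyzamide replicates 1 to 3; veh, vehicle replicates 1 and 2) for Sfi1, Cetn2 and Cetn3. The 3′ retained-intron form fills most of both vehicle bars, at 86.6 and 67.1 CPM, and the Cetn3 reference form fills more of the propyzamide bars, at 13.2 to 26.2 CPM.

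The annotated type of a transcript is given here over all genes, as a description. The 2045 tested retained-intron transcripts had a median log2 fold change of -0.58, with 66.5% negative, and 31.4% were lower in propyzamide without overlap. The 12375 tested protein-coding transcripts had a median of 0.013, with 49.5% negative and 13.3% lower without overlap. Over all 16682 transcripts the median was -0.051. Per kilobase, the 3′ retained-intron form had 2.63, 0 and 0.778 counts in propyzamide, against 55.2 and 31.2 in vehicle. That was 44.8, 0 and 5.56 times the receptor level of the same library in propyzamide, and 60.7 and 54.7 times in vehicle. For the short 5′ form the same ratio was 82.0, 0 and 0 in propyzamide and 35.8 and 32.2 in vehicle, and for the middle retained-intron form 23.2, 2.92 and 0 in propyzamide and 22.0 and 38.3 in vehicle. The ratios of both these forms overlapped between the groups through propyzamide replicate 1 alone. There they rest on 4 counts and 1 count, set against a receptor level of 0.0587 counts per kilobase, so nothing is read from the overlap. The receptor level and the retained-intron share were lower in propyzamide, as Sfi1 was. Within propyzamide the receptor level did not follow Sfi1. It was 0.467 counts per kilobase in propyzamide replicate 2 and 0.569 in vehicle replicate 2, with Sfi1 at 8.95 and 96.4 CPM. The part of the receptor level and the retained-intron share in the Sfi1 difference was not tested.

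Reads that Sfi1 shares with other genes were looked for as stretches of 31 bases, on either strand, that also occur in a transcript of another gene. They made up 6.51% of the 3′ retained-intron form, 12.9% of the middle retained-intron form, 23.2% of the short 5′ form and 16.8% of the reference form. Most of those in the 3′ retained-intron form and the reference form lay in Gm2420, which had 0 counts in all propyzamide libraries and 0 to 1.01 in vehicle. In the short 5′ form, 17.1% of the stretches lay in Drg1, which overlaps Sfi1 on the same strand and encodes a GTP-binding protein. Smaller parts of the short 5′ form lay in other genes, such as 4.12% in Paip2b. In the middle retained-intron form, 6.83% lay in Gm2420 and 3.27% in Olfr71. Counts may be divided uncertainly between genes that share such stretches. Copies of Sfi1 outside annotated transcripts were not searched for.

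The neighbourhood of Sfi1 was mixed. Of the genes within 200 kb, the pseudogene Gm11400, which lies inside the span of Sfi1 on the same strand, fell in propyzamide with 1.01, 1 and 0 counts, against 33.3 and 15.1 in vehicle (edgeR adjusted p = 0.0279). Gm12735, annotated as an antisense RNA, lies on the same strand as Sfi1, from 3193516 to 3194263, just beyond the 5′ end of Sfi1. It had 1, 4 and 1 counts in propyzamide and 26 and 24 in vehicle (edgeR adjusted p = 0.0504). Pisd-ps1, a pseudogene beside the 3′ end of Sfi1, had 1.09, 2.21 and 0.06 counts in propyzamide and 9.53 and 14.9 in vehicle (edgeR adjusted p = 0.107). The coding neighbours did not pass. Drg1 stood at 0.056 on the log2 scale (edgeR adjusted p = 0.958) and Eif4enif1, a transporter of the cap-binding factor eIF4E, at 0.40 (edgeR adjusted p = 0.728). Limk2, a kinase of the actin regulator cofilin, stood at -1.60 (edgeR adjusted p = 0.0560), with 115, 34 and 36 counts in propyzamide and 167 and 161 in vehicle. Of the untested non-coding neighbours, Fau-ps2 had 0, 1 and 0 counts in propyzamide and 13 and 8 in vehicle, Gm12592 had 0 in propyzamide and 6 and 6.46 in vehicle, and Gm11399 had 0 in propyzamide and 2.81 and 3 in vehicle. Lower values without overlap were seen at 6 non-coding neighbours and at Limk2, while Drg1, Eif4enif1, Patz1 and Pik3ip1 overlapped between the groups. Over all tested genes, 20.8% were lower in propyzamide without overlap. Of the 6, Fau-ps2, Gm12592 and Gm11399 had too few counts to be tested. Whether the position beside Sfi1 has a part in these values was not tested.

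Over the 5 libraries, the gene whose profile lay closest to that of Sfi1 was Aoc1, the diamine oxidase of gut epithelium, by the root mean square difference of centred log2(CPM + 1), which was 0.218. Aoc1 had 18.0, 17.97 and 10.96 CPM in propyzamide, against 208.4 and 124.3 CPM in vehicle. Among the next were Scn8a, a sodium channel, Ubash3a, a T-cell signalling protein, and Ryr1, the calcium release channel of skeletal muscle, with differences of 0.241 to 0.249. These 3 had 0 counts in every propyzamide library and 9.65 to 11.9 CPM in vehicle. They passed the minimum level through vehicle alone, and the 1 CPM added before the logarithm sets how close they come to Sfi1.

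Cetn2 stood at 13.3, 29.3 and 21.9 CPM in propyzamide, against 11.99 and 10.8 CPM in vehicle. The counts behind these values were 39, 57 and 36 in propyzamide and 29 and 19 in vehicle. The lowest propyzamide library was close to the higher vehicle library. The mean was 21.5 ± 8.01 CPM in propyzamide and 11.4 ± 0.858 CPM in vehicle (SD, n = 3 and 2), a log2 fold change of 0.90 with an SE of 0.48. EdgeR did not call Cetn2, and as with Sfi1 nothing is read from that outcome. In CPM the groups did not overlap, as for 16.7% of all tested genes that were higher in propyzamide. In TPM they did overlap, with 15.3, 25.1 and 17.4 in propyzamide and 20.6 and 9.09 in vehicle. Only 2 of the 4 transcripts had counts, and both encode the protein. ENSMUST00000033713.10 held 68.3%, 71.1% and 52.5% of the gene's counts in propyzamide and 48.3% and 78.3% in vehicle, and ENSMUST00000114551.9 held the rest. That division overlapped between the groups.

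Cetn3 stood at 21.4, 40.0 and 16.4 CPM in propyzamide, against 16.1 and 9.65 CPM in vehicle. The counts were 62.99, 78 and 27 in propyzamide and 39 and 17 in vehicle. Propyzamide replicate 3 and vehicle replicate 1 were nearly level. The mean was 26.0 ± 12.4 CPM in propyzamide and 12.9 ± 4.58 CPM in vehicle (SD, n = 3 and 2), a log2 fold change of 0.99 with an SE of 0.49. EdgeR did not call Cetn3, and nothing is read from that outcome either. In TPM, Cetn3 stood at 30.9, 44.6 and 15.96 in propyzamide and 69.5 and 15.2 in vehicle, so the groups overlapped. The order of the means turned, with 30.5 ± 14.3 TPM in propyzamide and 42.4 ± 38.4 TPM in vehicle, through vehicle replicate 1 alone. Without it the vehicle value is 15.2 TPM, below every propyzamide library.

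The high TPM of vehicle replicate 1 lay in short transcripts of Cetn3. The Cetn3 reference form, of 1226 bases, had 48.5, 51.1 and 21.7 estimated counts in propyzamide, against 11 and 8.34 in vehicle. All propyzamide libraries were higher, by 4.07-fold in the summed level, with an exact counting interval of 2.50 to 7.002. It held 77.0%, 65.5% and 80.4% of the gene's counts in propyzamide and 28.2% and 49.1% in vehicle. Of all tested transcripts, 18.2% were higher in propyzamide without overlap. The sum of the other Cetn3 transcripts was 14.5, 26.9 and 5.29 counts in propyzamide and 28 and 8.66 in vehicle, a ratio of 0.813 with an interval of 0.517 to 1.29.

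Among them the Cetn3 retained-intron form (ENSMUST00000223858.1), of 529 bases, begins 74 bases before an exon of the reference form. It had 12.7, 16.9 and 3.02 counts in propyzamide and 18.4 and 6 in vehicle. It is the form whose first junction is printed above. Because TPM divides by length, the Cetn3 retained-intron form stood at 37.1 TPM in vehicle replicate 1 with 18.4 counts, where the Cetn3 reference form stood at 7.19 TPM with 11. A coding form of 387 bases (ENSMUST00000223793.1) had 0, 0 and 0.46 counts in propyzamide and 6.06 and 1.99 in vehicle. A coding form of 697 bases (ENSMUST00000226007.1) had 0, 0 and 1.81 counts in propyzamide and 3.54 and 0 in vehicle, and its groups overlapped. Of the 31-base stretches of the Cetn3 reference form, 18.5% also lay in Gm17259, on the opposite strand, which had 0 to 4 counts per library. Cetn2 had no such stretch in common with another gene, and its longer form shared 0 with the Cetn3 reference form.

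By level per length, the order of the 3 genes differed between the groups. In the propyzamide means it ran from Cetn3 at 30.5 ± 14.3 TPM to Cetn2 at 19.3 ± 5.17 TPM and Sfi1 at 3.63 ± 2.36 TPM. Cetn2 and Cetn3 overlapped there, and Sfi1 lay below both in every library. In the vehicle means it ran from Sfi1 at 70.7 ± 44.8 TPM to Cetn3 at 42.4 ± 38.4 TPM and Cetn2 at 14.8 ± 8.14 TPM (SD, n = 3 for propyzamide and 2 for vehicle). Sfi1 had the highest value and Cetn2 the lowest in both vehicle libraries. As with Cetn3, part of the Sfi1 TPM in vehicle lay in short transcripts with few counts. In vehicle replicate 1 the short 5′ form, of 831 bases, stood at 28.7 TPM with 27.1 counts. The middle retained-intron form, of 733 bases, stood there at 18.4 TPM with 14.7 counts.

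Other genes of the centriole were read from 4 lists of 48 genes, of which 45 were found and 37 tested. EdgeR called 0 of the 37 in either direction over all genes. Of the 37, 6 had an unadjusted p under 0.05, as had 2184 of all 12024 tested genes. DESeq2 called 1 of the 37 and 565 of the 12024. Limma on log2(TPM + 1) or log2(TPM + 0.1) called 0 of the 37, and 490 or 277 of the 12024. These totals over all tested genes are the background for the lists below as well. The 37 genes had a median log2 fold change of -0.55 on edgeR's scale, and 29 were negative, against a median of -0.018 and 50.9% negative over all tested genes. The number negative was 29 with RLE size factors, 31 with upper-quartile scaling and 29 with limma on log2(TPM + 1). The median over all tested genes was itself -0.012, -0.14 and -0.39 in these settings. The percent negative over all genes is given for the main fit only, so these numbers have no matched background.

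Of the centrin partners, Sem1 had 183, 207 and 160 CPM in propyzamide, against 79.0 and 70.4 CPM in vehicle. Sem1 encodes a small acidic protein of the proteasome and of the TREX-2 complex, in which centrins take part. Its log2 fold change was 1.29 ± 0.35 (SE), with an edgeR adjusted p of 0.0697, and it was the gene that DESeq2 called (adjusted p = 0.0165). Rad23b, a partner of XPC in damage recognition, stood at 1.31 ± 0.43 (edgeR adjusted p = 0.138), with 23.4, 23.6 and 29.2 CPM in propyzamide and 8.69 and 11.9 CPM in vehicle. Wdr90, a protein of the centriole wall, stood at -1.62 ± 0.66 (edgeR adjusted p = 0.220). Poc5, the other centriolar protein with Sfi1-like centrin-binding repeats, had 5.10, 2.56 and 0 CPM in propyzamide and 9.62 and 8.38 CPM in vehicle, a log2 fold change of -1.70 ± 0.91 (edgeR adjusted p = 0.351); it was picked after its values were seen. The other 2 mouse centrin genes, Cetn1 and Cetn4, were too low to be tested, at 0 to 0.513 CPM in propyzamide and 1.13 to 2.27 CPM in vehicle.

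**Figure D4:**
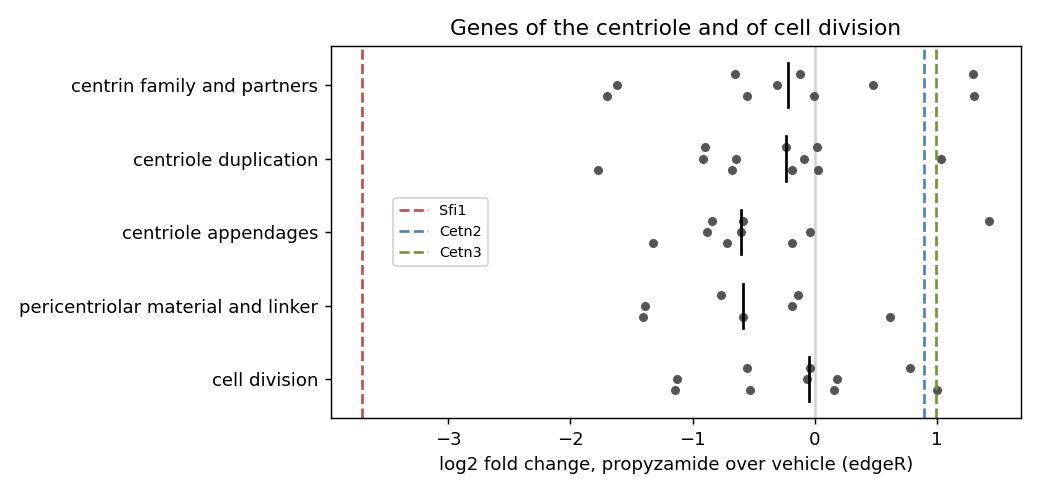
Log2 fold change, propyzamide over vehicle, of each tested gene of the 4 centriole lists and of a cell division list (points; black bars are list medians), with Sfi1, Cetn2 and Cetn3 as dashed lines. Sfi1 at -3.71 lies below every gene of the lists, whose lowest value is -1.78. As Sfi1 was chosen on this contrast, nothing is read from its place, and 232 genes had a lower log2 fold change.

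Of the 11 tested genes of centriole duplication, the 3 of smallest p were Cntrob, Cep120 and Cep63. Cntrob, a protein of the daughter centriole, stood at -1.78 ± 0.83 (edgeR adjusted p = 0.286), Cep120, which promotes centriole elongation, at 1.03 ± 0.48 (edgeR adjusted p = 0.280), and Cep63, which recruits Cep152, at -0.90 ± 0.48 (edgeR adjusted p = 0.357). Among appendage genes Cep170, a marker of the mother centriole, stood at 1.43 ± 0.65 (edgeR adjusted p = 0.266), and Sclt1 and Fbf1, proteins of the distal appendages, at -1.33 and -0.84 (edgeR adjusted p = 0.419 and 0.530). In the pericentriolar list Cdk5rap2 and Cep250, which anchor microtubule nucleation and link centriole pairs, stood at -1.40 ± 0.50 and -1.39 ± 0.62 (edgeR adjusted p = 0.161 and 0.259), and Pcnt, a scaffold of that material, at -0.77 (edgeR adjusted p = 0.426).

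Cell division genes were not called by edgeR either, with 0 of 10 past the threshold, 0 at an unadjusted p under 0.05, a median of -0.048, 0 calls by DESeq2 and 1 by limma on log2(TPM + 1). Their summed level was 267, 73.2 and 133 CPM in propyzamide and 182 and 101 CPM in vehicle, which overlap. Ccna2, a cyclin of S phase and G2, stood at 1.001 (edgeR adjusted p = 0.404), Top2a, a DNA topoisomerase of dividing cells, at 0.78 (edgeR adjusted p = 0.443) and Ccnb1, the mitotic cyclin B, at -1.14 (edgeR adjusted p = 0.495). Epithelial markers summed to 6409, 5326 and 4819 CPM in propyzamide and 4845 and 4071 CPM in vehicle, with 0 of 8 called by edgeR, 1 at an unadjusted p under 0.05 and 1 called by DESeq2. Smooth-muscle markers summed to 5205, 7700 and 8724 CPM in propyzamide and 455 and 2988 CPM in vehicle, with all 7 higher in propyzamide on edgeR's scale, 0 called by edgeR, 7 at an unadjusted p under 0.05, 5 called by DESeq2 and 3 by limma on log2(TPM + 1). Of 8 leukocyte markers 3 were tested, with 0 called by edgeR or DESeq2 and 0 at an unadjusted p under 0.05, and the 8 summed to 38.9, 137 and 213 CPM in propyzamide and 95.1 and 86.3 CPM in vehicle. Most of that sum was Lyz2, the lysozyme of macrophages and neutrophils, at 25.5, 107 and 181 CPM in propyzamide and 61.6 and 46.8 CPM in vehicle. Of the other 7, Ptprc, S100a8, S100a9 and Csf1r overlapped between the groups. Csf1r stood at 3.59, 9.62 and 22.6 CPM in propyzamide and 9.51 and 12.3 CPM in vehicle. Cd68, Cd3e and Cd79a were lower in propyzamide without overlap, on 2 to 13 counts per vehicle library, with Cd3e and Cd79a at 0 in propyzamide. The nuclear RNAs Malat1, Neat1, Meg3 and Kcnq1ot1 were the 4 tested of 7, with 0 called by edgeR or DESeq2 and 1 at an unadjusted p under 0.05, and Kcnq1ot1 had the lowest value at -0.98 ± 0.35 (edgeR adjusted p = 0.164). Markers of multiciliated cells, which make many centrin-bearing centrioles, were all too low to test. They summed to 3.399, 4.11 and 0.609 CPM in propyzamide and 10.3 and 10.2 CPM in vehicle, and did not all differ in 1 direction. Dnah9, Mcidas and Deup1 were at 0 in propyzamide and had counts in both vehicle libraries, and Foxj1 and Ccno were at 0 in propyzamide and in 1 of the 2 vehicle libraries. Dnah5 and Rsph1 overlapped between the groups, and Tekt1 had 1 count, in propyzamide. The smooth-muscle and multiciliated sums did not overlap between the groups. The multiciliated sum rested on at most 11.01 counts per gene and library, in Dnah9. The receptor level was also lower in propyzamide, and whether the multiciliated markers stood above it was not tested. The part of the smooth-muscle and multiciliated markers in the Sfi1 and centrin values was not tested either.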

How the data were processed

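The authors deposited 1 table per library, with columns named as RSEM writes them, that gives the estimated count, the TPM and the percent (IsoPct) of its gene's expression for each of 142647 transcripts, per the file headers. Per the submitters' processing notes the tools were RSEM and kallisto and the build GRCm38; no version is given there. Libraries were made by SMART-Seq2, per the labels' protocols; whether counting used strand is not given in the sources used here. Estimated counts were summed to genes and rounded. EdgeR 4.0.16 (R 4.3.3) tested all genes and all transcripts: filterByExpr, TMM, quasi-likelihood test, Benjamini-Hochberg adjustment, threshold 0.05. All 3 genes and 9 of their 32 transcripts passed the filter. SEs come from the F statistic. Counting intervals are exact (95%) on rounded group sums; they and the floor of 3 counts cover counting error only. Annotation and sequences are from GENCODE M21 (98.9% of transcripts found). The members, gene lists and tests were chosen with earlier results of these data known. Transcripts were named at 5% or more of their gene's counts in either group; list genes where called, otherwise up to 3 per list by smallest p. DESeq2 1.42.0, limma 3.58.1, other scalings, no filter, a replicate block and left-out libraries were alternatives. The fits were tested on simulated data. Of the 5 genes closest to Sfi1 in profile, 1 is not reported here.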

Additional observations from a re-analysis of the deposited data

How the results depend on the processing

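Sfi1 was lower in propyzamide under all 14 alternatives, at -3.53 to -3.93 (log2) in 12 of them and when each library was left out in turn at -3.53 to -3.89. It moved to -4.30 with limma on log2(TPM + 0.1) and to -2.14 with the counts of its 3′ retained-intron form left out, an alternative added after the data were seen. Cetn2 stayed positive, at 0.59 to 1.12 with a library left out, and moved to 0.43 with limma on log2(TPM + 1). Cetn3 stood at 0.54 to 1.40 with a library left out and turned to -0.22 with limma on log2(TPM + 1) and on log2(TPM + 0.1), where the median over all genes was -0.39 and -0.47. The difference in the share of Sfi1 counts on protein-coding transcripts, -7.88 percentage points, ranged from -15.4 to -4.13 with a library left out and was -18.7 by IsoPct.

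The number of genes called, 229, was 1327 without a filter, 565 with DESeq2, 490 with limma on log2(TPM + 1), 362 without rRNA-like and mitochondrial genes, and 36 to 499 with a library left out (36 and 55 when vehicle replicate 1 or 2 was dropped, 499 and 78 when propyzamide replicate 1 or 3 was). Of the calls 63.8% were lower in propyzamide, against 74.8% with upper-quartile scaling (median over all genes -0.14), 86.5% and 85.6% with limma on log2(TPM + 1) and log2(TPM + 0.1), 54.0% with DESeq2, 49.3% with the replicate block and 36.4% without vehicle replicate 2. For transcripts the number was 0, with 1696 at an unadjusted p under 0.05, and 441 with DESeq2 and 675 without a filter. The replicate block, on numbers shared by the titles only, called 639 genes and 0 transcripts and put Sfi1, Cetn2 and Cetn3 at -3.53, 0.78 and 1.18. Deviations of the same-numbered pairs correlated at 0.171 and 0.148. With 2 vehicle libraries, their deviations from the group mean are mirror images. Propyzamide replicate 1 therefore correlated at 0.171 and -0.171 with them, and the check cannot decide whether the numbers pair animals. With so few counts per transcript in propyzamide, depth limits every statement on single forms.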
